A study of Macaca fascicularis and Mus musculus with 492 samples.

Results

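The mesoderm-like cells of the mouse embryo at embryonic day 6.5 (E6.5) were 11 of 24 single cells of that stage, out of 71 mouse cells and 492 cells in the whole series. They were chosen by expression: a cell was counted as mesoderm-like when T or Mesp1 reached 5 on the log2(RPM + 1) scale, where RPM is a gene's reads scaled to the sequencing depth of that cell. The cells set against them were the other E6.5 cells, 8 of 24, in which both genes were below 5 and the mean of Pou5f1, Utf1 and Tdgf1 was above that of Amn, Apoa1 and Cubn. The remaining 5 of 24 had the higher mean for Amn, Apoa1 and Cubn, which mark visceral endoderm, and are called visceral-endoderm-marker cells. The same choice by these 6 genes gave 16 epiblast-marker cells of 25 cells at E5.5.

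The series profiled single cells of cynomolgus monkey and mouse by SC3-seq, which sequences the 3' ends of amplified cDNA, to place pluripotent states of embryos and cultures along development. The embryo cells used here carry the strain label C57BL/6 and no genetic change or treatment is labelled for them. At E6.5 the extraembryonic ectoderm was removed, and proximal epiblast and the whole visceral endoderm were dissociated apart, so the shares of cells (45.8% mesoderm-like, 95% Clopper-Pearson interval 25.6 to 67.2% for counting error only) follow the dissection and the picking and are not shares of an embryo. E5.5 epiblast was taken whole. Further levels came from cultures: 12 epiblast-like cells (EpiLC), induced from embryonic stem cells with activin A, bFGF and KSR, and 10 embryonic stem cells of the line BVSC R8 kept in 2i and LIF, the line being 1 source for both cultures.

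At the onset of gastrulation, epiblast cells at the posterior and proximal side of the mouse embryo form the primitive streak, leave the epithelium and become mesoderm or definitive endoderm. T (brachyury) is a T-box transcription factor of the streak and nascent mesoderm and acts downstream of WNT signalling. Mesp1 is a basic helix-loop-helix factor of the earliest mesoderm, including the precursors of heart and of extraembryonic mesoderm. Sp5 is a zinc-finger factor and a direct WNT target, and Pou5f1 (OCT4) is a pluripotency factor that stays on in the epiblast through early gastrulation. In the mouse genome (mm10, GENCODE M21 gene models) T lies at chr17:8434423-8442496 on the plus strand, Mesp1 at chr7:79792241-79793788 on the minus strand, and Sp5 at chr2:70474923-70477729 on the plus strand.

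The deposited values were RPM, and E6.5 cells had 1004103 to 3203911 recovered reads (median 1980770). The mesoderm-like cells had a median of 12882 genes detected, against 11365.5 in other E6.5 cells. Each deposited sample is 1 cell and the labels name no embryos, so cells are not replicates of a condition: each group counts as 1 sample, no test was made, and SDs show the spread between cells. All E6.5 cells carry one code in their titles and all E5.5 cells another, so stage and code cannot be told apart. The E6.5 cells are numbered here in title order. Mesoderm-like cells were cell 11 and cells 15 to 24, and all other E6.5 cells lay among cells 1 to 14. Choice and title order thus nearly coincide, and the part of that order in any difference was not tested. Transcripts of the immunoglobulin kappa constant gene Igkc were present in all 24 E6.5 cells (32.5 to 26052.9 RPM) and in 2 of the 47 other mouse cells, where they reached 18.5 RPM. Mesoderm-like cells had 32.5 to 473 RPM of Igkc (median 71.7), against 14312.4, 18402.4 and 26052.9 RPM in other E6.5 cells 1, 2 and 3. A further 18 blood and immune markers summed to 7.08 to 149 RPM in mesoderm-like cells, against 1797 to 8161 RPM in those 3 cells and 6.45 to 243 RPM in the 5 remaining other E6.5 cells. A difference is given with all 8 other E6.5 cells, and also with those 5 where this took it across a difference of 2 or changed it by more than 1.5 times; immunoglobulin genes were left out, and the part of immune transcripts in any one difference was not tested.

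**Figure D1:**
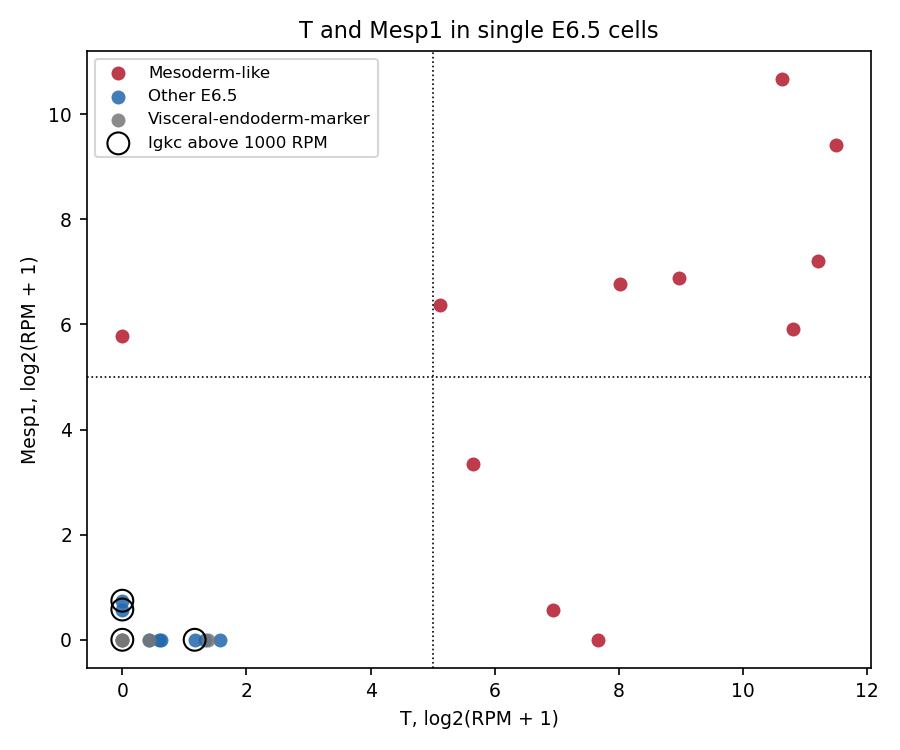
T (x axis) and Mesp1 (y axis) in the 24 E6.5 cells, both in log2(RPM + 1); dotted lines mark the limit of 5 used to choose the cells and rings mark the 4 cells above 1000 RPM of Igkc. The 11 mesoderm-like cells spread from 0 to 11.49 in T and from 0 to 10.67 in Mesp1, while no other E6.5 cell passes 1.58 in T or 0.74 in Mesp1.

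The groups differ in T and Mesp1 by the rule that made them. No other E6.5 cell came near the limit of 5 in either gene, but each gene alone overlapped between the groups. T, which was used for the choice, was 0 at its lowest, 8.02 at the median and 11.49 at its highest in mesoderm-like cells, against 0, 0.60 and 1.58 in other E6.5 cells. Mesp1, also used, was 0, 6.37 and 10.67 in mesoderm-like cells, against 0, 0 and 0.74 in other E6.5 cells. The cells just inside the limit were cell 16, with T at 5.11 but Mesp1 at 6.37, cell 19, with T at 5.65 and Mesp1 at 3.35, and cell 18, with Mesp1 at 5.77 and T at 0. The cell just outside it, other E6.5 cell 9, had T at 1.58. In 7 mesoderm-like cells both genes passed 5, in 3 T alone did and in 1 Mesp1 alone did. A limit of 4 in place of 5 gave the same cells.

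Sp5 was not used for the choice, but it was measured in the same cells. It was 0.47 at its lowest, 6.52 at the median and 10.19 at its highest in mesoderm-like cells, against 0, 0.21 and 6.34 in other E6.5 cells. Most mesoderm-like cells (8 of 11) had Sp5 at 5 or more and 1 of 8 other E6.5 cells did, cell 2, so the groups overlapped. Pou5f1, 1 of the genes that chose the other cells, was high on both sides, at 6.88 to 8.78 in mesoderm-like cells and 5.79 to 8.47 in other E6.5 cells. Sox17 and Foxa2, which mark definitive endoderm and its precursors, reached 1.00 and 2.80 in mesoderm-like cells, both in cell 11. Foxa2 reached 2.42 in other E6.5 cells, so its low level does not set the mesoderm-like cells apart. The label of mesoderm-like rests on T and Mesp1 alone, and cell 11 had Mesp1 at 0 with Nanog at 7.59 and Pou3f1 at 7.26.

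Across genes with a mean of at least 2 over the compared cells, 367 of 8708 (4.21%) were higher by at least 2 in mesoderm-like than in other E6.5 cells and 154 (1.77%) were lower by as much. Without the 3 cells rich in Igkc these were 957 of 8522 (11.2%) and 186 (2.18%), and 349 higher and 116 lower genes passed 2 both ways. The 5 cells that then remained had a median of 10131 genes detected, further below the 12882 of mesoderm-like cells, and the part of this gap in the larger count was not tested. A difference of 2 on this scale is about a 4-fold ratio for a well-expressed gene and understates the ratio of a low one. The median difference of all genes was 0.16 with all 8 other cells and 0.30 with the 5, and quantile normalization of the cells brought the first to 0.03. Of the genes past 2, 70.4% were higher in mesoderm-like cells, against 59.01% after quantile normalization and 83.7% without the cells rich in Igkc. Quantile normalization gave 275 higher and 191 lower genes, and averaging RPM before the logarithm gave 374 and 126. Counts depended on single cells: without other E6.5 cell 3, which had the most genes detected (15281), 592 genes were higher. For members of the lists below, percentages of all genes are the values to read the counts against, and since the cells were selected on T and Mesp1 from the same data, the counts describe these cells and support nothing.

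The genes with the largest positive differences included regulators of the streak and WNT pathway genes, beside genes of other roles. Phlda2, an imprinted gene that limits placental growth (chr7:143501545-143503150, minus strand), was 3.99, 9.21 and 11.45 (lowest, median, highest) in mesoderm-like cells, against 0.59, 1.22 and 7.70 in other E6.5 cells. Its difference of means was 5.83, and 7 of 11 mesoderm-like cells were above every other E6.5 cell. Apln, which encodes the ligand of the apelin receptor (chrX:48025146-48034853, minus strand), was 0, 6.83 and 8.70 in mesoderm-like cells, against 0, 0 and 1.16 in other E6.5 cells. Apln thus split the mesoderm-like cells themselves, 8 of 11 being at 5 or more.

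Prickle1, a planar cell polarity gene, was at 5 or more in 11 of 11 mesoderm-like cells. It was 5.69, 7.25 and 9.20 in mesoderm-like cells, against 0, 0.88 and 6.32 in other E6.5 cells, a difference of 5.08 with all other cells and 6.07 with the 5. Evx1, a homeobox factor of the streak (chr6:52313498-52318378, plus strand), averaged 5.26 ± 3.47 in mesoderm-like cells (SD, n = 11) and 0.28 ± 0.56 in other E6.5 cells (SD, n = 8). It was at 0 in mesoderm-like cells 15, 16 and 20, each of which had Mesp1 above 6. Sall3, a zinc-finger factor, averaged 5.54 ± 2.73 in mesoderm-like cells and 0.93 ± 1.58 in other E6.5 cells.

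WNT antagonists were also in this set. Frzb, a secreted WNT antagonist, averaged 5.72 ± 3.25 in mesoderm-like cells and 0.61 ± 1.48 in other E6.5 cells. Nkd1, an inhibitor induced by WNT signalling, averaged 5.48 ± 2.54 in mesoderm-like cells and 0.83 ± 1.64 in other E6.5 cells. Tnfrsf19, a receptor of the TNF receptor family, had 10 of 11 mesoderm-like cells above the highest other E6.5 cell, with a lowest of 4.22, a median of 6.23 and a highest of 7.96 in mesoderm-like cells, against 0, 1.20 and 4.53 in other E6.5 cells. Prickle1 and Tnfrsf19 were thus on in nearly every mesoderm-like cell, where Frzb and Nkd1 were at 0 in at least 1.

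The other genes in this set included Cdh11, a mesenchymal cadherin, whose difference was 4.53, and Pdlim4, an actin-associated LIM protein, whose difference was 4.35. Igdcc3 and Tmem47, a membrane protein of the immunoglobulin superfamily and a junction protein, had differences of 4.45 and 4.35. Hand1, a factor of lateral and extraembryonic mesoderm, was 0, 4.09 and 9.06 in mesoderm-like cells, with 5 of 11 at 5 or more. In all 8 other E6.5 cells it was at 0, so no ratio is given.

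**Figure D2:**
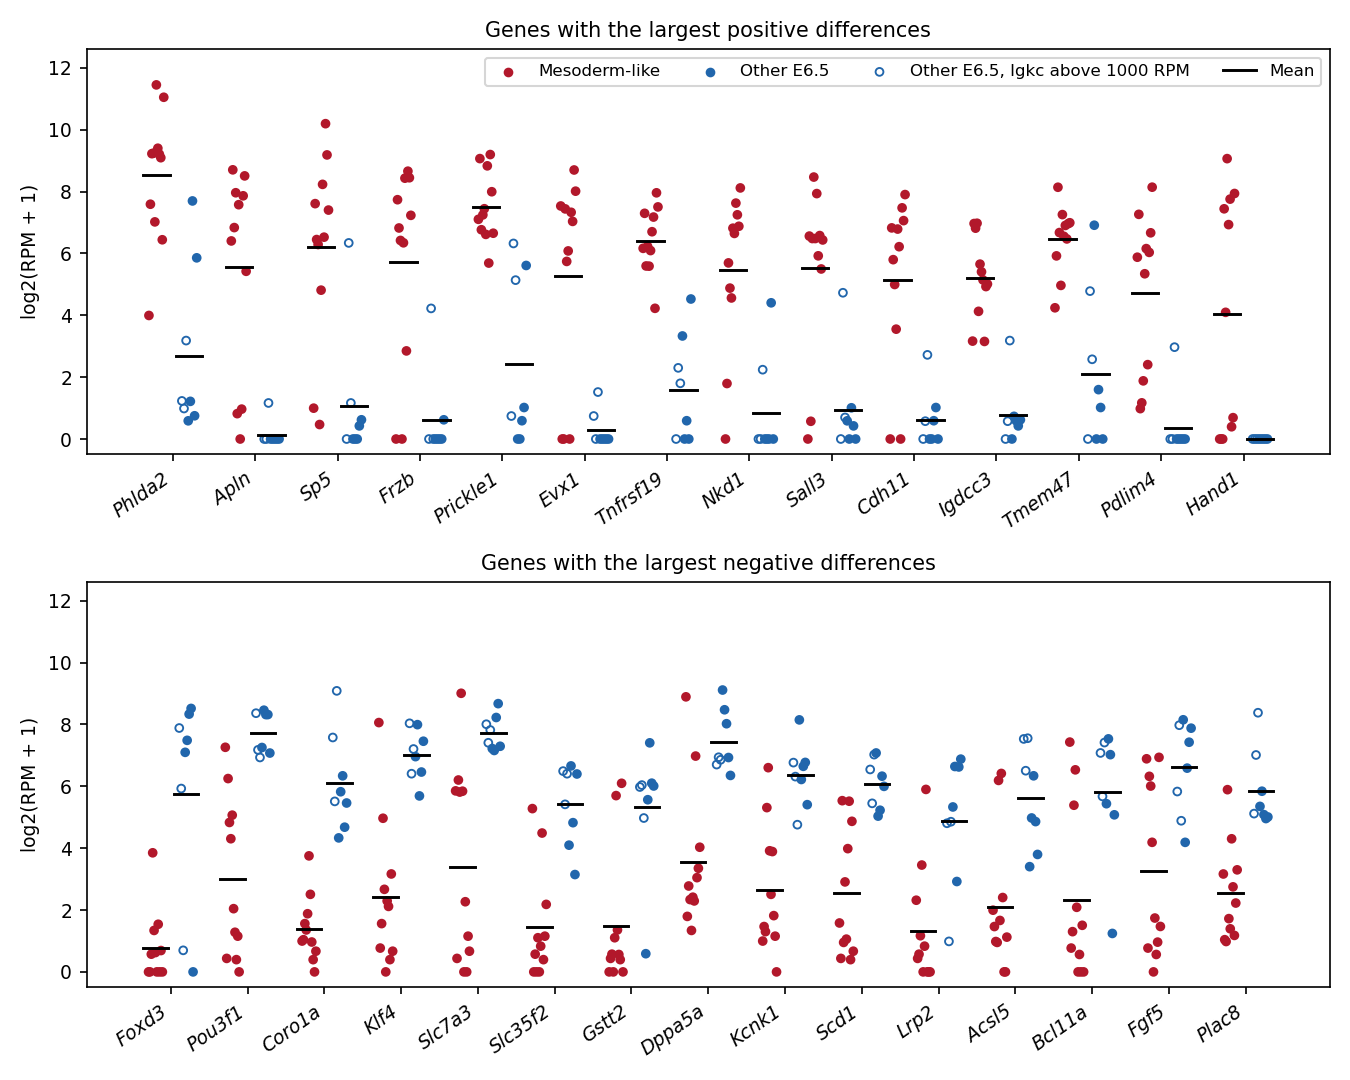
Levels in log2(RPM + 1) of genes with the largest positive differences (top) and the 15 with the largest negative difference (bottom), each point 1 cell, mesoderm-like cells left in red and other E6.5 cells right in blue, open where Igkc was above 1000 RPM, with bars at the means. Prickle1 and Tnfrsf19 are high in nearly all mesoderm-like cells, whereas Hand1, Evx1 and Apln are at or near 0 in some of them.

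The genes with the largest negative differences included transcription factors of the epiblast. Pou3f1 (OCT6), a POU factor of postimplantation epiblast and early ectoderm (chr4:124656807-124660655, plus strand), was 0, 2.04 and 7.26 in mesoderm-like cells, against 6.93, 7.79 and 8.46 in other E6.5 cells. All but 1 mesoderm-like cell, cell 11 at 7.26, were below the lowest other cell. Foxd3, a forkhead factor required in the epiblast, was 0, 0.57 and 3.85 in mesoderm-like cells, against 0, 7.29 and 8.52 in other E6.5 cells, of which cells 3 and 14 were near or at 0. Fgf5, a growth factor gene of primed epiblast, averaged 3.26 ± 2.82 in mesoderm-like cells and 6.62 ± 1.51 in other E6.5 cells, and 4 of 11 mesoderm-like cells were still at 5 or more. Visceral-endoderm-marker cells of E6.5 had Fgf5 at 7.98 to 9.01, so high Fgf5 was not particular to the other E6.5 cells.

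Klf4, a factor of naive pluripotency, was 0, 2.12 and 8.06 in mesoderm-like cells, against 5.69, 7.08 and 8.04 in other E6.5 cells. Its highest mesoderm-like value was again that of cell 11. In title order Klf4 was 5.69 or more in each of cells 1 to 14 and at most 4.97 in cells 15 to 24. At E5.5 it averaged 1.35 ± 1.62 (SD, n = 16), so for Klf4 the other E6.5 cells and not the mesoderm-like cells stood apart from the earlier epiblast-marker cells, and E6.5 visceral-endoderm-marker cells were as high at 7.38 ± 0.91 (SD, n = 5). Dppa5a, an RNA-binding protein gene of pluripotent cells, averaged 3.57 ± 2.32 in mesoderm-like cells, against 7.42 ± 0.98 in other E6.5 cells and 10.96 ± 0.25 at E5.5. Visceral-endoderm-marker cells of E6.5 had Dppa5a at 5.18 to 8.52, so it too was high outside the other E6.5 cells. Scd1 and Acsl5, enzymes of fatty acid metabolism, had differences of -3.55 and -3.51, and Slc7a3, a transporter of cationic amino acids, had one of -4.34.

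Coro1a, a coronin abundant in blood cells, was 0, 1.04 and 3.75 in mesoderm-like cells, against 4.33, 5.67 and 9.09 in other E6.5 cells. The groups did not overlap, and the 2 highest cells, at 7.58 and 9.09, were among those rich in Igkc. Coro1a averaged 5.33 in the 5 without such levels, the highest being cell 10 at 6.34, which also had their highest Igkc (756 RPM). Visceral-endoderm-marker cell 4, with Igkc at 2982 RPM, had Coro1a at 6.98, and the others of that group had at most 1.37. At E5.5 Coro1a averaged 1.63 ± 1.36, and the part of immune transcripts in its difference was not tested. Bcl11a, a zinc-finger factor of the nervous system and of B cells, averaged 2.33 ± 2.77 in mesoderm-like cells, 5.81 ± 2.08 in other E6.5 cells and 5.26 in the 5 without such levels of Igkc. Plac8, a small cysteine-rich protein, averaged 2.54 ± 1.55 in mesoderm-like cells and 5.84 ± 1.23 in other E6.5 cells. Of the genes left in this set, the solute carrier Slc35f2 differed by -3.97, the glutathione transferase Gstt2 by -3.86, the potassium channel Kcnk1 by -3.75 and the endocytic receptor Lrp2 by -3.55. All 30 named genes were past 2 in their direction with the 5 other cells too, but only because their choice required it. Their differences with the 5 cells were 0.73 to 1.23 times those with 8. When RPM was averaged before the logarithm was taken, which gives single high cells more weight, 4 of these genes fell short of 2: Slc7a3 at -1.69, Dppa5a at -1.83, Fgf5 at -1.92 and Bcl11a at -1.68.

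Groups did not overlap for 6 of 8708 genes. The 4 genes with every mesoderm-like cell above every other E6.5 cell (0.0459%, against 4.21% higher by 2) included Peg3, Tbc1d16 and Cxx1c, chosen after their values were seen. Peg3, a paternally expressed zinc-finger gene, was 6.89, 7.89 and 9.08 in mesoderm-like cells, against 0.75, 5.796 and 6.59 in other E6.5 cells. Cxx1c belongs to a family of near-identical copies, so its reads may be shared with them. The 2 genes with every mesoderm-like cell below (0.023%, against 1.77% lower by 2) were Coro1a and Gm6749.

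Of the 15 transcription factors listed for streak and mesendoderm, all in the table, 10 passed the filter on low values, which lets a gene in that is high in 1 group alone. Of these, 8 were higher by at least 2 in mesoderm-like cells, none was lower, and the median of the 10 was 3.03, beside 0.16 for all genes; T is among them and was used for the choice. Eomes, a T-box factor of streak, mesendoderm and visceral endoderm, was 1.75, 7.24 and 9.04 in mesoderm-like cells, against 0, 3.49 and 8.36 in other E6.5 cells. Other E6.5 cells 2 and 8 had Eomes at 8.36 and 7.33, so it was also high outside the mesoderm-like cells. Mixl1 and Lhx1, homeobox factors of the streak and its anterior derivatives, averaged 3.06 ± 3.15 and 3.52 ± 3.09 in mesoderm-like cells and 0.64 ± 1.55 and 0.56 ± 0.75 in other E6.5 cells. Sp8, a paralogue of Sp5, averaged 5.24 ± 1.5 in mesoderm-like cells and 1.38 ± 2.07 in other E6.5 cells. Otx2, a factor of anterior epiblast, was 0.67 to 9.10 in mesoderm-like cells and 7.10 to 8.18 in other E6.5 cells, a difference of -1.44.

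Later mesoderm genes were on in part of the cells. Of 11 factors listed for nascent and paraxial mesoderm 2 passed the filter, Mesp1 itself and Tbx6, and of 18 for cardiac, lateral and extraembryonic mesoderm 2 did. Tbx6, a T-box factor of paraxial mesoderm, averaged 3.97 ± 2.73 in mesoderm-like cells and 0.72 ± 1.29 in other E6.5 cells. Foxc1, a forkhead factor of paraxial mesoderm and heart precursors, was at 5 or more in 4 of 11 mesoderm-like cells and at 0 in every other E6.5 cell. Kdr, the receptor gene of endothelial and blood precursors, was at 5 or more in 2 mesoderm-like cells, 18 and 19, and reached 2.72 in other E6.5 cells. Of 11 haemangioblast and endothelial genes 1 passed, Lmo2, with a difference of -0.19 (0.64 with the 5 cells). Hoxb1, the 1 of 11 listed Hox genes that passed, was at 5 or more in 6 of 11 mesoderm-like cells and at 0 in all 8 other E6.5 cells. None of the 12 definitive endoderm and node genes passed.

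Genes of the passage from epithelium to mesenchyme differed on both sides. Of 16 mesenchymal genes 12 passed, 8 were higher by 2 and none was lower (9 and 0 without the cells rich in Igkc), with a median of 3.12. Fn1 (fibronectin), a matrix protein that migrating mesoderm needs, was 4.22, 8.49 and 9.95 in mesoderm-like cells, against 1.33, 4.42 and 6.05 in other E6.5 cells. At E5.5 Fn1 averaged 6.45 ± 0.84, between the 2 groups of E6.5 cells. Cdh2 (N-cadherin) averaged 5.54 ± 1.85 in mesoderm-like cells and 2.29 ± 1.92 in other E6.5 cells, and 8 of 11 mesoderm-like cells were above every other E6.5 cell. Snai1 and Zeb2, repressors of E-cadherin, averaged 3.58 ± 2.12 and 4.33 ± 2.15 in mesoderm-like cells and 0.40 ± 0.75 and 0.90 ± 1.24 in other E6.5 cells. Pdgfra, a receptor of early mesoderm, was above every other E6.5 cell in 9 of 11 mesoderm-like cells. Vim (vimentin) was 5.16 to 9.24 in mesoderm-like cells and 2.66 to 7.28 in other E6.5 cells.

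On the epithelial side, 14 of 20 genes passed, none was higher by 2, 4 were lower and the median was -1.25. With RPM averaged before the logarithm 1 of the 14 was lower by 2. Cldn6, a claudin of tight junctions, was 0.44, 5.00 and 7.50 in mesoderm-like cells, against 6.15, 7.44 and 8.44 in other E6.5 cells. Cldn7 and the splicing regulator Esrp1 each differed by -2.47, and Rab25, a GTPase of apical recycling, by -2.05 (-3.90 with the 5 cells). Cdh1 (E-cadherin) itself was not past 2 (-0.70, and -1.08 with the 5 cells), at 0, 4.01 and 5.63 in mesoderm-like cells, against 2.04, 4.56 and 4.72 in other E6.5 cells. Cells 20 and 23 were at 0 for Cdh1, while cells 16, 19 and 21 were above every other E6.5 cell. Epcam was lower by 1.41 and was still at 5 or more in 10 of 11 mesoderm-like cells.

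**Figure D3:**
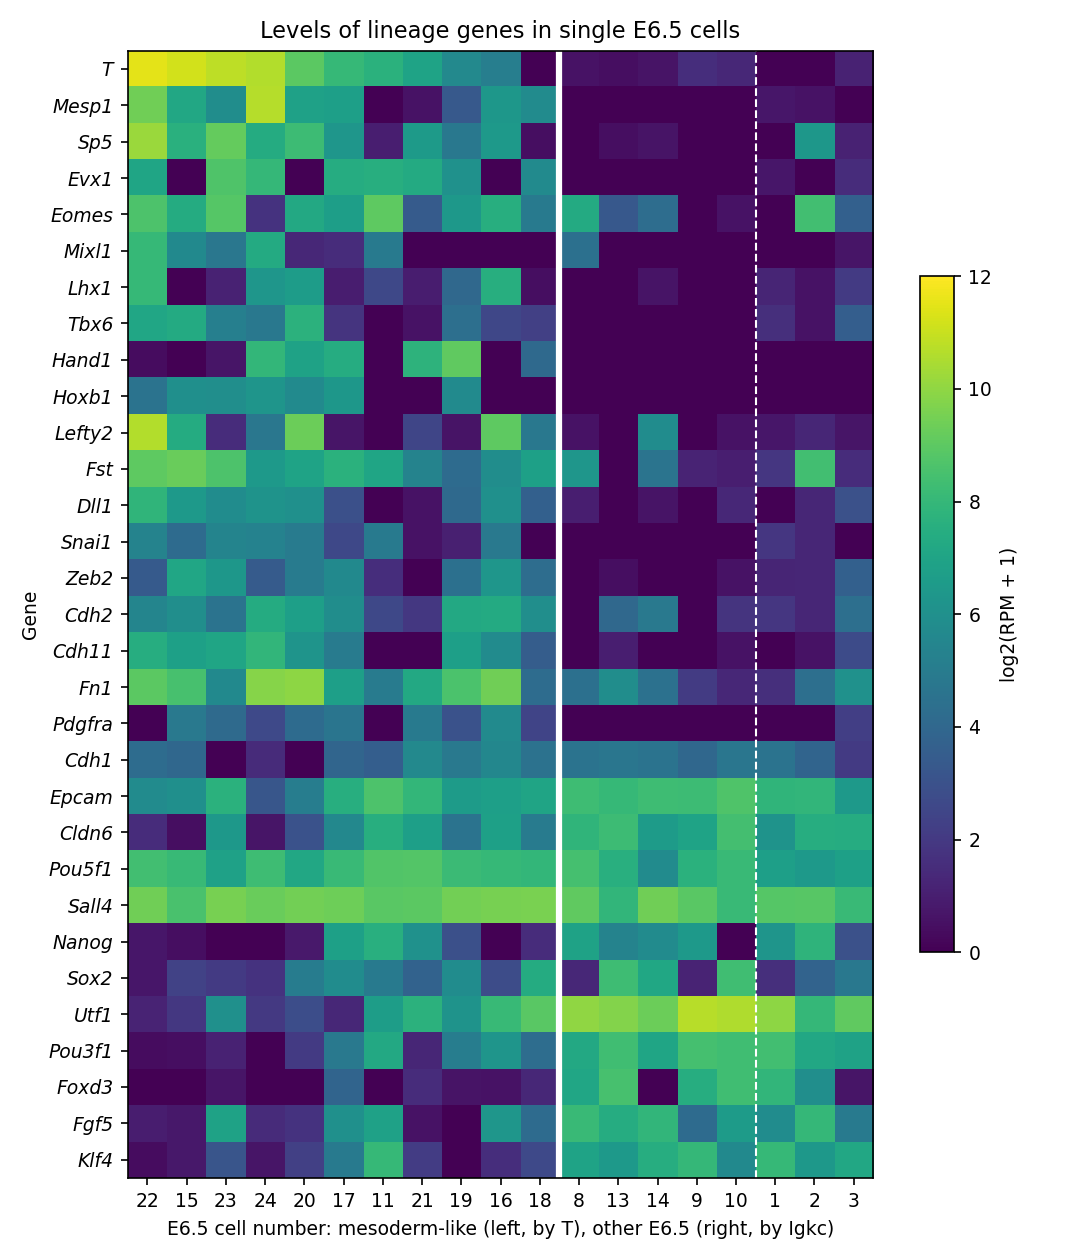
Levels in log2(RPM + 1), as colour, of lineage genes (rows) in single E6.5 cells (columns), the 11 mesoderm-like cells left in falling order of T and the 8 other E6.5 cells right in rising order of Igkc, with a dashed line before the 3 above 1000 RPM. Sall4 and Pou5f1 are high throughout, Hand1 and Lefty2 vary between mesoderm-like cells, and cell 11 combines T at 7.67 with Nanog at 7.59 and Pou3f1 at 7.26.

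Pluripotency genes divided. Of 15 core genes 13 passed, none was higher by 2, 4 were lower (Nanog, L1td1, Foxd3 and Utf1, the last used for the choice; 2 with RPM averaged before the logarithm) and the median was -0.07 (-0.72 with the 5 cells). Sall4, a zinc-finger partner of OCT4, was 8.55 to 9.57 in mesoderm-like cells and 7.91 to 9.38 in other E6.5 cells, and Trim71, an RNA-binding protein, was 6.80 to 9.11 in mesoderm-like cells and 6.08 to 8.24 in other E6.5 cells. L1td1, an RNA-binding protein of pluripotent cells, was 0, 5.39 and 8.28 in mesoderm-like cells, against 6.21, 7.82 and 8.44 in other E6.5 cells. Nanog, a homeobox factor, was 0, 0.83 and 7.59 in mesoderm-like cells, against 0, 6.02 and 7.82 in other E6.5 cells. Sox2 was lower by 0.71 (by 1.4 with the 5 cells), with wide spread in both groups. Of 18 postimplantation epiblast genes 16 passed, 2 were higher and 3 lower (Fgf5, Pou3f1 and Slc7a3), against 1 and 4 with the 5 cells and 1 and 1 with RPM averaged before the logarithm. Nkx1-2, a homeobox gene, was higher by 2.41, and by 1.93 with the 5 cells. The de novo methyltransferase genes Dnmt3a and Dnmt3b differed by -1.80 (-2.09 with the 5 cells) and -1.15, with Dnmt3b at 8.98 or more in every mesoderm-like cell. Of 15 naive pluripotency genes 4 passed and 2, Klf4 and Dppa5a, were lower by 2 (1 with RPM averaged first).

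Signalling genes are given by role, and most differences lay under 2. Of 19 NODAL pathway genes in the table (20 listed) 14 passed and 1 was higher, Lefty2, a secreted NODAL antagonist that is on in nascent mesoderm. Lefty2 was 0, 4.75 and 10.60 in mesoderm-like cells, against 0, 0.64 and 5.82 in other E6.5 cells. Nodal itself averaged 2.94 ± 1.57 in mesoderm-like cells and 3.09 ± 1.55 in other E6.5 cells, and Skil, a repressor of SMAD signalling, was lower by 1.55, with 9 of 11 mesoderm-like cells below every other cell.

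Of 20 genes for WNT ligands, receptors and secretion 8 passed and 2 were higher by 2. Wls, which carries WNT proteins to the cell surface, was 1.10, 7.05 and 8.32 in mesoderm-like cells, against 0.59, 2.89 and 6.29 in other E6.5 cells, and 9 of 11 mesoderm-like cells were above every other E6.5 cell. Wnt5b was higher by 2.46 with all other cells and by 1.84 with the 5. Rspo3, a WNT enhancer, was at 5 or more in 5 mesoderm-like cells and at 0 in all other E6.5 cells. Of 19 WNT targets, effectors and antagonists 13 passed and 3 were higher: Sp5 and Nkd1, already given, and Ccnd2 (cyclin D2), which differed by 2.22, by 3.87 with the 5 cells and by 1.65 after quantile normalization. The 3 other E6.5 cells rich in Igkc had Ccnd2 at 4.83 to 6.90, against 0.42 to 2.34 in the 5. Axin2, a negative-feedback target, differed by 1.71 and Lef1 by 0.99 (0.43 with the 5 cells).

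Of 21 BMP pathway genes 9 passed and 2 were higher. Id1, a BMP target, averaged 4.05 ± 2.54 in mesoderm-like cells and 0.84 ± 0.68 in other E6.5 cells, but Id3, another, was lower by 1.25. Fst (follistatin), a secreted inhibitor of activin, was 4.20, 6.98 and 9.24 in mesoderm-like cells, against 0, 1.70 and 8.35 in other E6.5 cells. Of 21 FGF pathway genes 13 passed, with the receptor gene Fgfr1 higher by 2.55 (1.84 with the 5 cells) and Fgf5 lower. Fgfr1 was 5.34 to 8.41 in mesoderm-like cells and 1.89 to 6.48 in other E6.5 cells. Fgf8, a ligand needed for cells to leave the streak, averaged 2.47 ± 2.48 in mesoderm-like cells and 2.87 ± 2.94 in other E6.5 cells. Of 13 Notch pathway genes 7 passed, and the ligand genes Dll1 and Dll3 were higher by 3.61 and 2.68. A further ligand gene, Jag1, was higher by 1.86, and by 2.38 with the 5 cells.

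Genes of motility and guidance included Rnd3, a GTPase that loosens actin fibres, Epha4, an ephrin receptor, and the protocadherin Pcdh19, higher by 2.71, 3.31 and 3.17; these were 3 of 5 that passed of 12 listed. None of 16 glycolysis genes passed 2 (median -0.13, and -0.33 with the 5 cells), of 19 cell cycle genes 1 was higher, Ccnd2, and 1 lower, Myc (median -0.05), and none of the 6 immediate early and dissociation stress genes that passed did so. With the 5 cells the cell cycle inhibitor Cdkn1a and the immediate early gene Egr1 were higher by 2.02 and 2.03, against 1.11 and 1.04 with 8. Of the 9 genes listed for germ cell precursors 6 passed and 1 was higher, Ifitm1, which has near-identical relatives that may share its reads. Prdm1, a repressor needed for germ cell precursors and on in other early lineages too, differed by 0.97, and by 2.39 with the 5 cells. Of 9 early neural genes 2 passed and Six3 was higher by 2.29.

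Markers of other cell types were summed in each cell, and their part in the differences above was not tested. The 18 visceral endoderm markers summed to 57.6 to 480 RPM in mesoderm-like cells and 79.02 to 865 RPM in other E6.5 cells, against 6756 to 13283 RPM in visceral-endoderm-marker cells; 5 of them passed the filter and 2 were lower by 2, Apoa4 and Apoa1, the second used for the choice (median 0.22). With the 5 other cells 1 of them was lower, Apoa4, and 1 higher, the endocytic adaptor gene Dab2, by 2.18 (median 0.52). The 10 extraembryonic ectoderm markers summed to 0.78 to 307 RPM in mesoderm-like cells and 1.35 to 90.1 RPM in other E6.5 cells; Bmp8b was at 0 in both groups and Elf5 in the other E6.5 cells. The 11 decidual markers summed to 1.00 to 85.4 RPM in mesoderm-like cells and 0.51 to 102 RPM in other E6.5 cells, and Hoxa11, Lum and Prl8a2 were at 0 in both. Of the 19 blood and immune genes in the table (20 listed) 7 passed with all other cells and 6 were lower by 2, but without the cells rich in Igkc 3 passed and none was past 2. These 6 were the B cell genes Cd79a, Cd79b and 2010001M09Rik (Mzb1) and the antigen presentation genes Cd74, H2-Aa and H2-Ab1. Igj was left out of the sum as an immunoglobulin gene, and S100a9 was at 0 in both groups.

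The mesoderm-like cells differed among themselves. The 8 cells with Mesp1 at 5 or more are set here beside the 3 with T alone, cells 11, 19 and 21; these groups were divided by Mesp1, and 3 cells are few. Dll1 averaged 5.62 ± 1.58 in the 8 Mesp1-high cells and 1.56 ± 2.23 in the 3 others, and Dll3 averaged 5.84 ± 2.07 in the 8 and 1.75 ± 2.24 in the 3. The ligand genes did not all differ alike: Jag1 averaged 5.09 ± 2.85 in the 8 and 0.77 ± 1.34 in the 3, but Jag2 averaged 1.06 ± 1.28 in the 8 and 2.47 ± 1.60 in the 3. The mesenchymal list was mixed too. Zeb2, Cdh2 and Cdh11 were higher by at least 2 in the 8 cells. A lower mean in the 8 was found for 3 of the 12 genes, among them the matrix gene Sparc, at 5.05 ± 1.91 in the 8 and 6.95 ± 0.54 in the 3. The share of all genes that differed this much between the 8 and the 3 was not counted, so these genes are examples and no result about the list. Lefty2 averaged 6.00 ± 3.67 in the 8 Mesp1-high cells and 1.05 ± 1.32 in the 3 others. Rspo3 was at 0 in 2 of the 8 and in all 3 others. Nanog ran the other way, at 1.29 ± 2.30 in the 8 Mesp1-high cells and 5.53 ± 2.39 in the 3 others, as did Cldn7, at 2.03 ± 2.37 in the 8 and 6.03 ± 0.05 in the 3.

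Cell 11 had some epiblast genes high and others low. It had T at 7.67 with Mesp1 at 0, and Eomes at 9.04, Fgf8 at 7.13, Nanog at 7.59, Pou3f1 at 7.26, Klf4 at 8.06 and Dppa5a at 8.89. Of these, Eomes, Klf4 and Dppa5a were also high in visceral-endoderm-marker cells of E6.5. In cell 11 Foxd3 was at 0, and Utf1 (6.67, used for the choice) and Otx2 (6.28) were below every other E6.5 cell. Its mean of Amn, Apoa1 and Cubn, 4.68, was the highest of the mesoderm-like cells (median 0.96). It also had the fewest recovered reads of the 24 cells, 1004103, and the highest Igkc of the mesoderm-like cells, 473 RPM. By title order it lay among the cells of the other groups. Cell 18 had Mesp1 at 5.77 without T, with Evx1 at 5.74, Kdr at 5.48, Sox2 at 7.37 and Slc7a3 at 9.01. Cells 15, 22, 23 and 24, with T above 10, had Pou3f1 at 0.44, 0.40, 1.16 and 0.00.

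Hand1 and Lefty2 were both high in some cells and not in others, and the tally depends on the limit. Hand1 was at 5 or more in cells 17, 19, 20, 21 and 24 and Lefty2 in cells 15, 16, 20 and 22, so 1 cell had both, 4 had Hand1 alone, 3 Lefty2 alone and 3 neither. Cells 18 and 24 were just under 5 for Lefty2, at 4.797 and 4.75, with Hand1 at 4.095 and 7.94, so at a limit of 4 there were 3 cells with both, 3 with Hand1 alone, 3 with Lefty2 alone and 2 with neither. Lhx1 and Foxc2 reached 5 in 3 of the Lefty2 cells, 16, 20 and 22, with Lhx1 at 7.51, 6.65 and 8.05 and Foxc2 at 7.35, 7.88 and 7.49. Cell 24 also had Lhx1, at 6.30. Prdm1 was at 5 or more in cells 15, 17, 18 and 20, and Tfap2c, another such factor, in cells 21, 23 and 24, so no cell had both at that level, nor at a limit of 4. These pairs and the limit of 4 were picked after their values were seen.

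Over the 11 mesoderm-like cells, which share a title code and differ in depth, T followed Sp5 (Pearson 0.78, Spearman 0.84) and ran against Utf1 (-0.76 and -0.85), Sox2 (-0.77 and -0.72) and Pou3f1 (-0.62 and -0.74). Between T and Mesp1 these were 0.38 and 0.66, over cells chosen by those genes. With Hand1 (-0.19 and -0.19) and Evx1 (0.06 and 0.25) T showed little relation. These are descriptions of 11 cells and no test was made. Among 5050 genes with a mean of at least 4 over these cells, those most like Mesp1 by Pearson correlation included Tollip (0.91), Utp14a (0.88), 4933427G23Rik (0.88) and Dll3 (0.87).

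The comparison with E5.5 shares its mesoderm-like cells with the one above and mixes stage, dissection and title code. Of 8972 genes 258 (2.88%) were higher by at least 2 in mesoderm-like E6.5 cells than in E5.5 epiblast-marker cells and 727 (8.1%) were lower, with a median of -0.38 over all genes. For Sp5 the difference was 6.17 here and 5.13 against other E6.5 cells, for Phlda2 4.73 and 5.83, and for Prickle1 5.91 and 5.08. For Pou3f1 it was -4.67 here and -4.74 against other E6.5 cells, for Dppa5a -7.39 and -3.85, and for Fgf5 -3.17 and -3.36.

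Mmp14 set against E5.5 looked different from the comparison within E6.5. This matrix metalloproteinase gene averaged 4.58 ± 2.15 in mesoderm-like cells, 1.33 ± 1.43 in other E6.5 cells and 4.66 ± 1.55 at E5.5. The other E6.5 cells were thus the low group. Dppa4, a gene of pluripotent cells, averaged 1.20 ± 1.24 in mesoderm-like cells, 2.21 ± 2.43 in other E6.5 cells and 7.39 ± 0.58 at E5.5. Dnmt3l, a cofactor of de novo methylation, averaged 1.20 ± 2.21 in mesoderm-like cells, 1.96 ± 2.99 in other E6.5 cells and 8.32 ± 0.84 at E5.5. Both genes thus had low means in each E6.5 group, but single cells were high. Dnmt3l was at 7.71 in mesoderm-like cell 11 and at 6.37 and 7.17 in other E6.5 cells 10 and 14. Dppa4 was at 7.35 in other E6.5 cell 8. Of the 20 epithelial genes 17 passed here, 1 was higher (Krt8, by 3.02) and 9 were lower, among them Crb3, an apical polarity protein, by 4.13, Ovol2, by 3.48, and Cldn6, by 3.32.

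**Figure D4:**
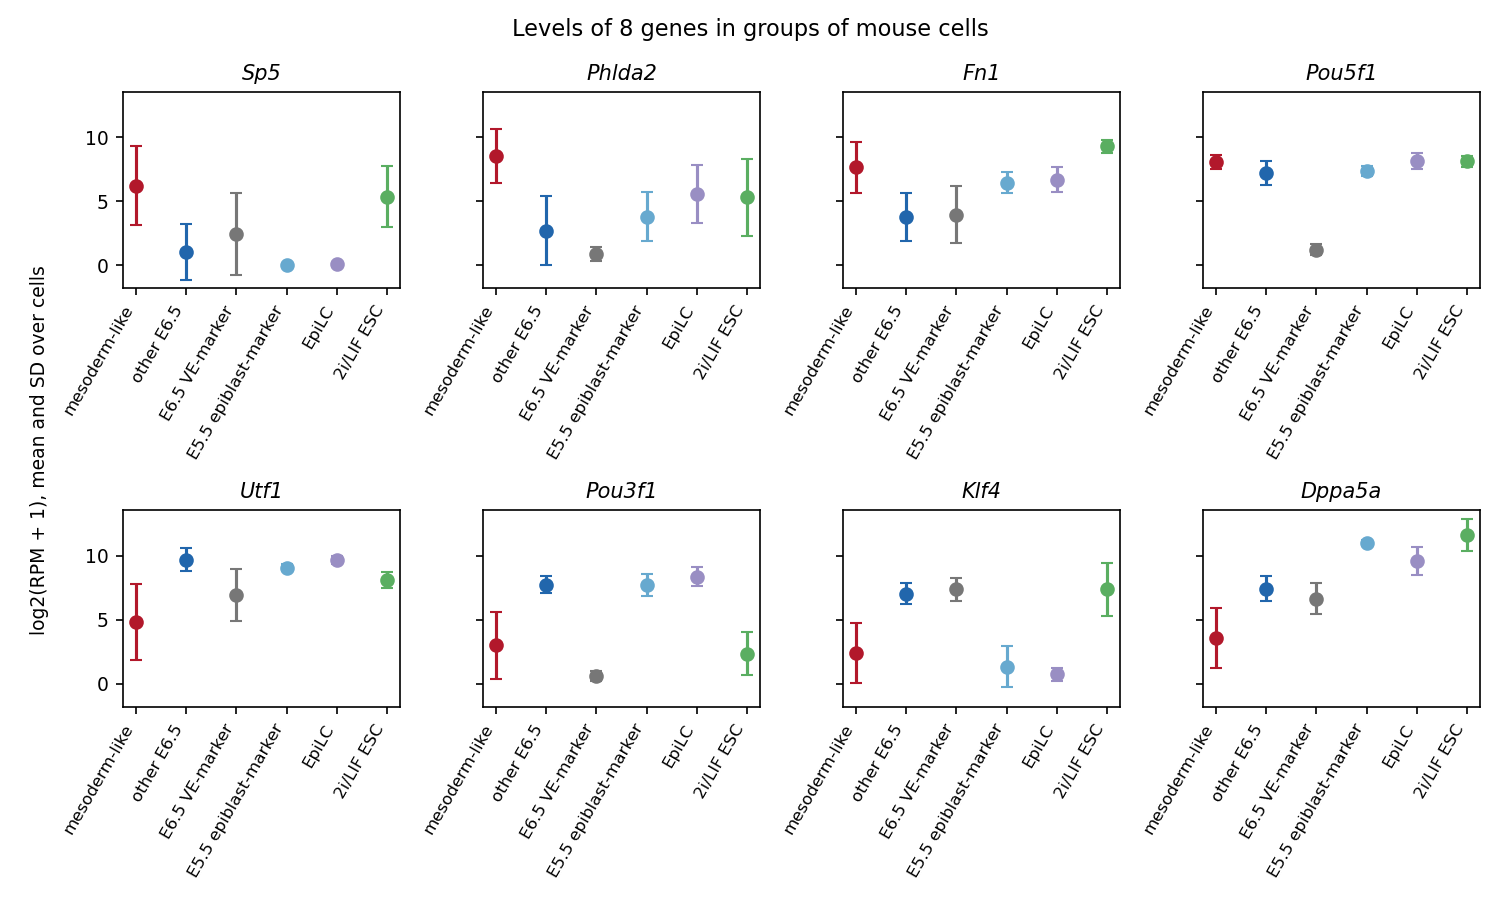
Mean level in log2(RPM + 1) of 8 genes in 6 groups of mouse cells, with bars for the SD over cells (11 mesoderm-like, 8 other E6.5, 5 E6.5 visceral-endoderm-marker, 16 E5.5 epiblast-marker, 12 EpiLC and 10 stem cells). Mesoderm-like cells are highest in Phlda2, and Klf4 is high in other E6.5 cells (7.03), visceral-endoderm-marker cells (7.38) and stem cells (7.36) but low in E5.5 cells and EpiLC; Utf1 and Pou5f1 were among the genes that chose the cells.

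The levels across all mouse groups placed the streak genes differently. T averaged 7.86 ± 3.42 in mesoderm-like cells, 0.71 ± 0.59 in other E6.5 cells, 0.15 ± 0.23 in EpiLC, 1.65 ± 2.43 in stem cells and 0 in all 16 E5.5 epiblast-marker cells. Mesp1 was at 0 in every EpiLC and stem cell. Sp5 averaged 6.20 ± 3.07 in mesoderm-like cells and 5.35 ± 2.40 in stem cells (SD, n = 10), values that did not differ beyond their spread, but 0.08 ± 0.20 in EpiLC. Fn1 averaged 7.65 ± 2.00 in mesoderm-like cells, 6.67 ± 0.98 in EpiLC and 9.27 ± 0.50 in stem cells. Pou3f1 averaged 3.0 ± 2.60 in mesoderm-like cells, 8.36 ± 0.72 in EpiLC and 2.36 ± 1.68 in stem cells.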

How the data were processed

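Single cells of mouse embryos and cultures were profiled by SC3-seq. The authors deposited RPM per gene and cell; the submitters' processing notes name the build mm10 and the tools TopHat 1.4.1, Cufflinks 2.2.0 and cutadapt 1.3 without their roles. The sources used here do not give the filters, the use of strand in counting or any tagging of molecules, so reads of antisense or overlapping genes may not be told apart. The table has 26219 genes, 71 columns that match a sample and 37 that were not used; 21415 genes were matched to GENCODE M21 by Entrez ID for positions. Values were taken as log2(RPM + 1), a pseudocount of 1. Reads were recovered by dividing each RPM value by the cell's most common one above 0.01 RPM, taken as 1 read; over the low range, up to 500 reads, no E6.5 cell had under 99.6% of its values within 0.1 of a whole number.

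Differences are of mean log2(RPM + 1) over cells, for genes with a mean of at least 2 over the compared cells; 264 immunoglobulin genes were left out. The named genes are the 15 with the largest positive and the 15 with the largest negative difference that also passed 2 in the same direction without cells above 1000 RPM of Igkc, the 8 genes of the rule left out; a few genes that met these rules are not reported here. Genes in 27 lists were described beside them, 410 of 412 list entries being in the table. The members, the lists and the limits were chosen with earlier results of these data known. No cell was removed and no doublet caller was run. Alternatives changed the cells, the summary, the pseudocount, the filter, the scaling, the depth and the rule. The scripts were checked on simulated data. Python 3.11.15, pandas 2.3.3, numpy 2.4.6 and scipy 1.17.1 were used.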

Additional observations from a re-analysis of the deposited data

Results flagged for a closer look

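Among the 30 named genes, 8 had a value in 1 other E6.5 cell far from the rest of its group (29 sets with a range above 0 were examined, and chance flags about 1 in 20). Cell 3 had the highest level of 4 of them, on the log2(RPM + 1) scale: Apln at 1.165, Cdh11 at 2.72, Igdcc3 at 3.182 and Pdlim4 at 2.969. Cell 2 had the highest Frzb, 4.222, and Sall3, 4.728. Both cells were above 1000 RPM of Igkc, and the part of that in these values was not tested. Low values were those of cell 8 in Gstt2, at 0.588, and cell 13 in Bcl11a, at 1.243. Igkc, left out of the comparisons, reached 26052.9 RPM in other E6.5 cell 3.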

How the results depend on the processing

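No difference of a named gene changed sign under any alternative that gave a value. Without the cells rich in Igkc none could, since the choice of these genes required the same direction there. The counts of genes past 2 depended on the choices. Against other E6.5 cells, 367 higher and 154 lower became 957 higher without the cells rich in Igkc, 799 and 360 with medians, 36 and 20 with a pseudocount of 10, and 117 and 54 with a filter at a mean of 4. They became 194 higher with a limit of 6 for T or Mesp1. Under log2(mean RPM + 1) they were 374 and 126 and under quantile normalization 275 and 191, the values to read the list counts below against. Leaving out each cell in turn gave 325 to 592 higher and 132 to 181 lower, 592 being without other E6.5 cell 3. Against E5.5, 258 higher and 727 lower became 307 lower with log2(mean RPM + 1), 1155 lower with medians, 85 and 102 with a pseudocount of 10, 75 and 368 with a filter at 4, and 536 higher with no filter. For named genes, 4 of 30 differences under log2(mean RPM + 1) and 6 of 30 under a pseudocount of 10 moved by more than the spread between cells; the cause was not tested. Under log2(mean RPM + 1) these were Tmem47 at 2.43, Klf4 at -2.30, Slc7a3 at -1.69 and Dppa5a at -1.83, and Fgf5 (-1.92) and Bcl11a (-1.68) were also short of 2. Under the pseudocount of 10, which lowers differences of low genes, Gstt2 (-1.98), Lrp2 (-1.77), Acsl5 (-1.91) and Bcl11a (-1.93) were short of it, and those that moved were Tnfrsf19 at 2.83, Igdcc3 at 2.15, Tmem47 at 2.50, Pdlim4 at 2.13, Coro1a at -2.74 and Slc35f2 at -2.02. Lists that lost calls under log2(mean RPM + 1) were the epithelial genes (1 lower, against 4), core pluripotency (2 against 4), postimplantation epiblast (1 higher and 1 lower, against 2 and 3), naive pluripotency (1 against 2), the FGF pathway (none past 2, against 1 higher and 1 lower), the BMP pathway (1 higher, against 2), WNT targets (2 against 3), germ cell precursors (none, against 1 higher), cell cycle (none lower, against 1) and streak factors (7 against 8), while the mesenchymal genes stayed at 8 higher. Under quantile normalization 7 streak factors and 7 mesenchymal genes were higher by 2 (8 of each as deposited), 4 epithelial genes were lower, WNT targets had 2 higher and cell cycle none. Without the cells rich in Igkc, higher genes numbered 3 for WNT ligands, receptors and secretion (2 with all cells), 4 for WNT targets (3), 3 for the BMP pathway (2), 3 for the Notch pathway (2), none for the FGF pathway (1), 3 for nascent and paraxial mesoderm (2) and 2 for cardiac, lateral and extraembryonic mesoderm (1). Thinning every cell to 1004103 reads gave 409 higher and 164 lower. No paired analysis was possible because each sample is 1 cell with no embryo named and no test was made. A gene at 0 in a cell was not detected at 1004103 to 3203911 reads and may be present.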
